A study of Rattus norvegicus with 6 samples.

Results

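The genes described here are 3 matrix metalloproteinases, Mmp2 (ENSRNOG00000016695), Mmp3 (ENSRNOG00000032626) and Mmp9 (ENSRNOG00000017539), and Timp1 (ENSRNOG00000010208), an inhibitor of these enzymes. They were taken by Ensembl rat identifier, as a set proposed with earlier results of these data known, and are 4 of the 26404 genes counted. PolyA RNA came from H9c2, a rat line of cardiac myoblasts established from embryonic heart tissue. The labels write the line as H9c2 and as Hc92. There were 3 groups of 2 libraries: cells given an empty vector, cells with a BMPR2 tail domain mutant and cells with a BMPR2 kinase domain mutant. BMPR2 is a receptor of bone morphogenetic proteins, with an intracellular kinase domain followed by a long tail, and the design text speaks of cells that lack the domain in question. The labels give neither how the mutants were made, nor whether a mutant is 1 clone, nor a culture time. They do not say that replicates came from separate cultures, so each p-value reflects only how far these particular libraries vary, and that variation may be technical.

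Matrix metalloproteinases are zinc-dependent enzymes that cut proteins of the extracellular matrix. They are made as inactive precursors, activated by removal of a propeptide, and held in check by the tissue inhibitors of metalloproteinases, which bind the active site. In the heart they take part in remodelling of the matrix after injury. Mmp2 and Mmp9 are the gelatinases, with fibronectin-like repeats that bind denatured collagen. Mmp3 is stromelysin 1, which cuts many matrix proteins and activates other metalloproteinase precursors. Timp1 is a secreted inhibitor with high affinity for the Mmp9 precursor.

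Mmp2 was lower in all 4 mutant libraries than in either library of empty vector, at 7.70 to 14.4 CPM against 55.1 and 397 CPM in empty vector. The difference did not pass the test after adjustment, and the empty vector replicates were themselves far apart. Timp1 had between 1865 and 3240 reads in all 6 libraries, and its groups overlapped in each comparison. Mmp3 and Mmp9 had few reads, and most Mmp3 reads came from 1 library of the tail mutant.

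The total count in genes lay between 19116082 and 24936136 per library. Levels are CPM, the count relative to the library total, scaled by the trimmed mean of M-values (TMM). A test across 12221 genes covered 2 of the 4 genes, Mmp2 and Timp1. The filter on low counts required the minimum count in at least 2 libraries. Mmp3 reached it only in tail mutant replicate 2, and Mmp9 only in empty vector replicate 2. Some libraries stood apart over all tested genes. A principal component analysis of log2 CPM gave a first component with 39.2% of the variance. On it empty vector replicate 2 lay farthest out, at -64.6, with empty vector replicate 1 at -31.6 and the mutants between 18.9 and 27.7. On the second component (30.9%) tail mutant replicate 2 lay at -60.9 and the others between -9.03 and 37.1.

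The RefSeq promoter table of the GRCr8 assembly held 2 of the 4 genes by symbol, Mmp3 and Timp1. The 250 bases before their listed start sites are shown for these 2 genes because the table held them. Both read 5′ to 3′ in the direction of the gene, from chr8:12925031-12925280 on the plus strand for Mmp3 and from chrX:3771123-3771372 on the minus strand for Timp1. Capitals mark matches to the motifs described next.
Mmp3: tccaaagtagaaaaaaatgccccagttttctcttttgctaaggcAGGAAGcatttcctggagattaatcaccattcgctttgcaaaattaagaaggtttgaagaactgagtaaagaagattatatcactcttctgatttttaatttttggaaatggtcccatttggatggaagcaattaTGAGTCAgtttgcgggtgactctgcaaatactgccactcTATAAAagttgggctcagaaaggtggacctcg
Timp1: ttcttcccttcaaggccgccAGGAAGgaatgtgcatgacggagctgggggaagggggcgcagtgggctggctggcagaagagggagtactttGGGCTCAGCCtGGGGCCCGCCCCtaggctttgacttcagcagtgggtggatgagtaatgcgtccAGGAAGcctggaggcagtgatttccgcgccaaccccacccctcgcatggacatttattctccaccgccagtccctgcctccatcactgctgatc

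The motifs were searched on both strands. The AP-1 motif TGANTCA, bound by Fos and Jun factors, matched 1 time in Mmp3, between 71 and 65 bases before the start, and 0 times in Timp1. It was present in 6.34% of the 33469 promoter windows of this length. The TATA box TATAAA matched between 32 and 27 bases before the Mmp3 start and 0 times in Timp1, against 12.9% of windows. The ETS motif AGGAAG matched 1 time in Mmp3 and 2 times in Timp1, and 29.5% of windows held it. The Sp1 motif GGGCGG matched 0 times in Mmp3 and 1 time in Timp1, with 30.5% of windows holding it. The loose NF-kB pattern, GGG and CC with any 5 bases between them, present in 42.3% of windows, matched 0 times in Mmp3 and 5 times in Timp1, where 4 of the matches overlapped each other and the Sp1 match. The SMAD motifs CAGACA and GGCGCC, present in 17.2% and 8.69% of windows, matched 0 times in both genes. These matches are letters in a window of a later assembly than the Rnor_5.0 build of the counts, and no binding was measured.

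Mmp2, gelatinase A, was counted 1487 and 8140 times in the empty vector libraries, which is 55.1 CPM in replicate 1 and 397 CPM in replicate 2. In the tail mutant it was counted 191 and 222 times, at 8.71 and 10.7 CPM. In the kinase mutant it was counted 289 and 158 times, at 14.4 and 7.70 CPM. All 4 mutant libraries thus lay below both empty vector libraries, and the ranges of the mutants overlapped each other. The lowest empty vector level was 3.84 times the highest mutant level. These counts are large enough that counting error is small: the 95% Poisson interval of the lowest count, 158, runs from 134 to 185, and that of the lowest empty vector count from 1412 to 1565. Intervals of this kind cover counting error only.

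**Figure D1:**
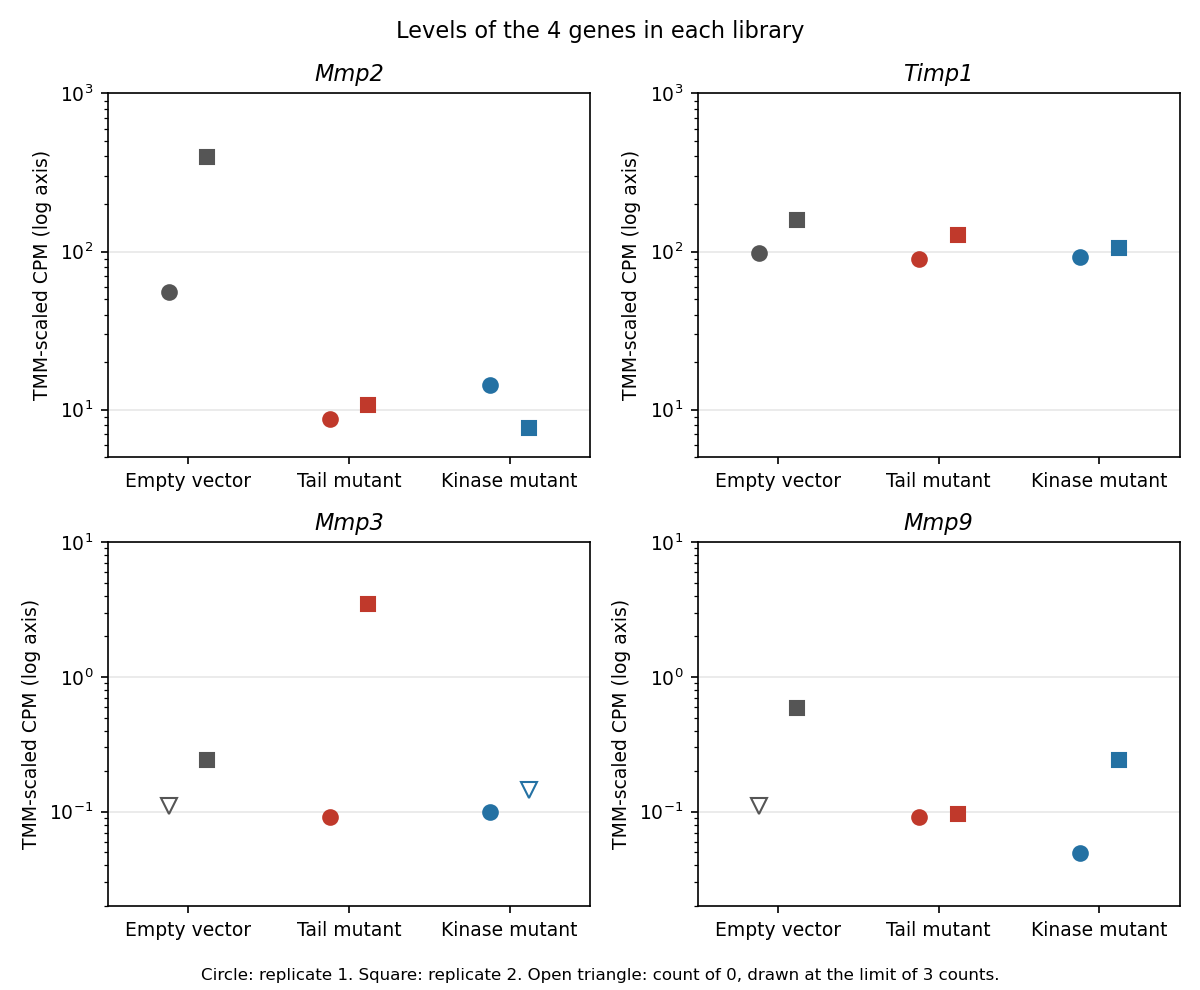
TMM-scaled CPM on a log axis of Mmp2, Timp1, Mmp3 and Mmp9 in the 6 libraries, with circles for replicate 1, squares for replicate 2 and open triangles for counts of 0 drawn at 3 counts. Mmp2 lay between 7.70 and 14.4 CPM in the 4 mutant libraries and at 55.1 and 397 CPM in empty vector, whereas Timp1 stayed between 90.4 and 158 CPM.

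The tail mutant was compared with empty vector to ask how expression differs where the tail domain is affected. Mmp2 stood at 226 ± 242 CPM (SD, n = 2) in empty vector. Its level was 9.72 ± 1.42 CPM (SD, n = 2) with the tail mutant. The log2 fold change was -4.54 ± 0.96 (SE), with a 95% interval from -6.90 to -2.17. Its unadjusted p in edgeR's quasi-likelihood test was 0.00337, and after Benjamini-Hochberg adjustment over all tested genes p was 0.373, which did not pass 0.05. Of the 2 tested genes, 0 were called, in a comparison where edgeR called 1 of 12221 genes (0.00818%). An unadjusted p below 0.05 with a lower level in the tail mutant was reached by 4.91% of all tested genes, and libraries that did not overlap, with the tail mutant lower, by 19.7%. The size of the Mmp2 difference placed it among the 60 most negative fold changes, where the median over all tested genes was 0.0050 and 5% of genes lay below -1.01. DESeq2 called Mmp2 with a Benjamini-Hochberg adjusted p of 0.00282, in a fit that called 2.03% of genes, and was the only one of 13 alternative settings to do so. The settings that kept both libraries of each compared group gave adjusted p-values from 0.00282 to 0.595, the last in edgeR with no filter.

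For the kinase domain the same question was asked, against the same control libraries. The Mmp2 level was 11.0 ± 4.72 CPM (SD, n = 2) with the kinase mutant. The log2 fold change was -4.36 ± 0.96 (SE), with a 95% interval from -6.70 to -2.01. The unadjusted p was 0.00393 and the Benjamini-Hochberg adjusted p in edgeR was 0.285, so Mmp2 did not pass here either. Again 0 of the 2 tested genes were called, and 1 of 12221 genes overall (0.00818%). A lower level with an unadjusted p below 0.05 was found for 5.56% of tested genes, and libraries without overlap, with the kinase mutant lower, for 26.4%. Mmp2 was among the 66 most negative fold changes, the median of all tested genes being -0.012. DESeq2 called it (Benjamini-Hochberg adjusted p of 0.00414, with 2.95% of genes called), alone among 13 alternative settings. Over the settings that kept both libraries of each compared group, the adjusted p ranged up to 0.475, in edgeR with no filter.

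With the mean of both mutants set against empty vector, the Mmp2 log2 fold change was -4.45 ± 0.73 (SE), with a 95% interval from -6.23 to -2.67. The unadjusted p was 0.000885, which ranked 69 among 12221, and the adjusted p in edgeR with Benjamini-Hochberg adjustment was 0.157. EdgeR called 4 genes in this comparison (0.0327%), and Mmp2 was not among them. A lower mutant level with an unadjusted p below 0.05 was seen for 6.74% of genes, and 4 mutant libraries that all lay below both empty vector libraries for 13% of genes. DESeq2 called Mmp2 at a Benjamini-Hochberg adjusted p of 0.000179, with 3.44% of genes called.

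The value of the Mmp2 difference depended on which empty vector library was used. Replicate 2 was 7.20 times replicate 1, a gap of 2.85 on the log2 scale, where the median gap between these libraries over all tested genes was 0.22. A gap of that size or more, in either direction, was found in 71 of 12221 genes. With replicate 2 above replicate 1 by at least as much there were 44 genes, and in 41 of them the mutant mean was below the empty vector mean, a direction to which the high replicate itself contributes. Without empty vector replicate 2 the log2 fold change was -2.51 ± 0.40 (SE) for the tail and -2.32 ± 0.40 (SE) for the kinase mutant. Without empty vector replicate 1 the values were -5.35 ± 0.42 (SE) and -5.17 ± 0.42 (SE). For both mutants together, the log2 fold change was -5.26 ± 0.32 (SE) without empty vector replicate 1 and -2.42 ± 0.34 (SE) without replicate 2. Without tail mutant replicate 2 the value for the tail mutant was -4.69 ± 1.46 (SE). Empty vector replicate 2 is also the library farthest out on the first principal component, and the part of this in the Mmp2 level was not tested. In these fits the lone empty vector library is assumed to vary like the other groups. The direction was the same in each of the 13 alternatives for either mutant against empty vector. This follows from all mutant libraries lying below both empty vector libraries, and is no separate support. The biological coefficient of variation of Mmp2 was 55.8%, against a median of 22.1% over tested genes.

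**Figure D2:**
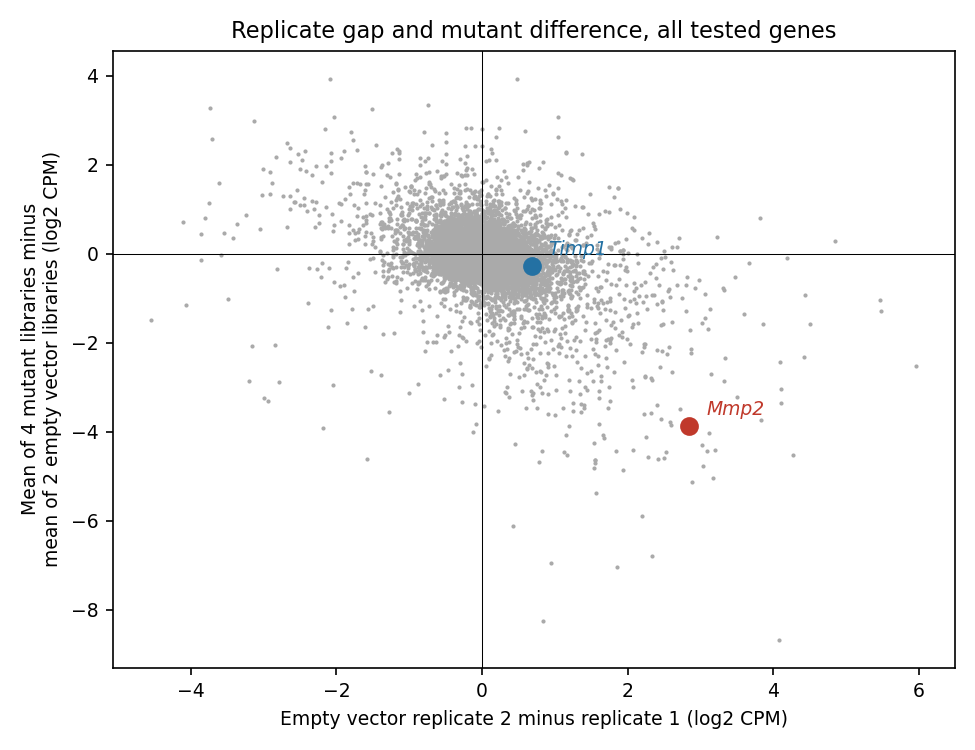
Each grey point is 1 of 12221 tested genes, placed by the log2 CPM difference between the empty vector replicates (horizontal) and between the mean of the 4 mutant libraries and the mean of the 2 empty vector libraries (vertical). Mmp2 lies at 2.85 and -3.86, while Timp1 lies near the centre. Both axes use the empty vector libraries.

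**Figure D3:**
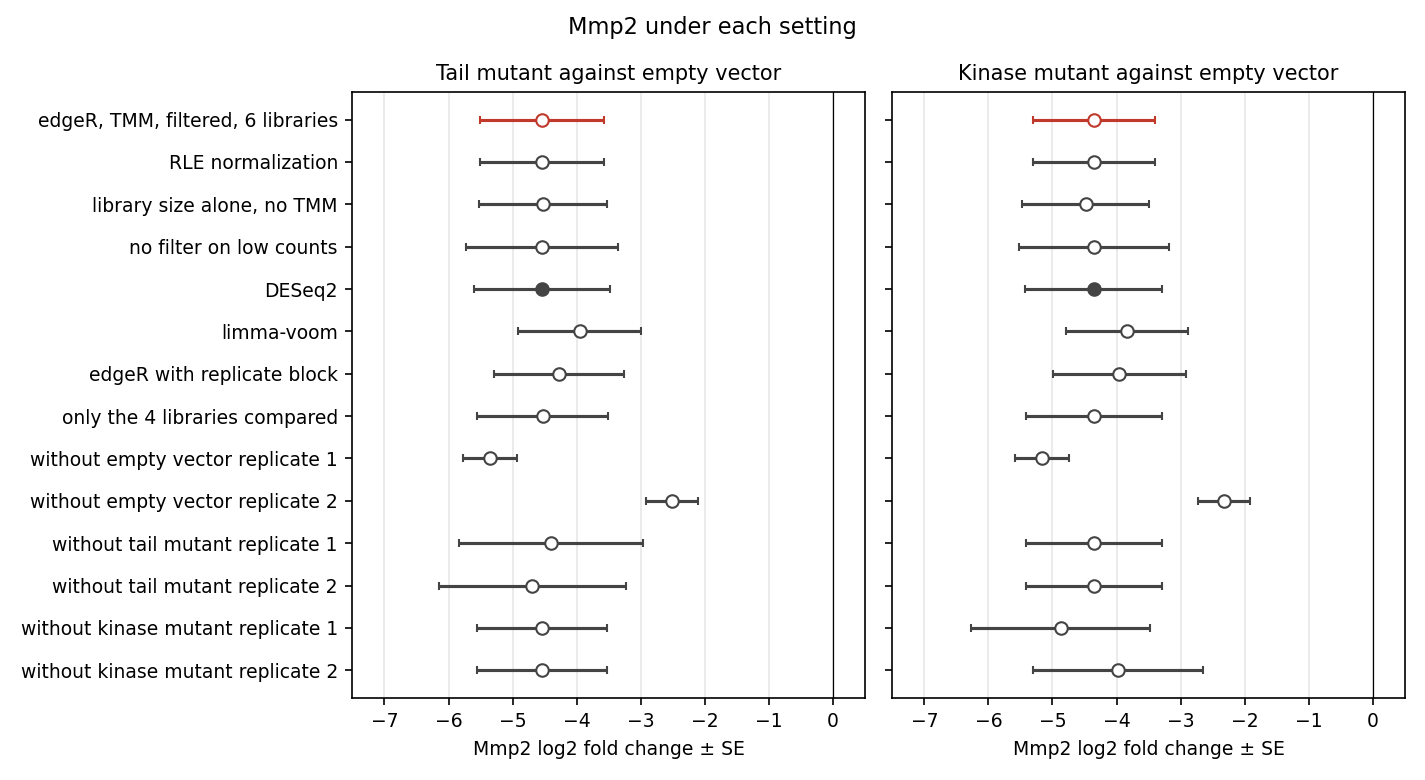
Log2 fold change of Mmp2 with its SE against empty vector, for the tail mutant (left) and the kinase mutant (right), under the edgeR fit of all 6 libraries (red) and 13 alternatives (grey). Filled points have an adjusted p below 0.05, which only DESeq2 gave, and the values nearest to 0 are those without empty vector replicate 2.

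Between the mutants the Mmp2 difference was small beside its error. The tail mutant was -0.18 ± 0.86 (SE) relative to the kinase mutant on the log2 scale, with a 95% interval from -2.30 to 1.94 and an edgeR Benjamini-Hochberg adjusted p of 0.977. The interval is wide, so these libraries do not settle the size or direction of a difference. It is an interval of the estimate and not a limit of detection. EdgeR called 0 genes of 12221 between the mutants (0%), with 448 at an unadjusted p below 0.05, DESeq2 called 12 (0.0982%) and limma-voom 0. The sign of the Mmp2 difference turned without kinase mutant replicate 1, to 0.33.

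Timp1, the inhibitor, was counted 2655 and 3240 times in empty vector, at 98.4 and 158 CPM. In the tail mutant its counts of 1981 and 2641 gave 90.4 and 128 CPM. In the kinase mutant its counts of 1865 and 2169 gave 92.8 and 106 CPM. The groups overlapped in each pairing: empty vector replicate 2 was highest and tail mutant replicate 2 next, and empty vector replicate 1 lay between the kinase mutant libraries. The mean Timp1 level of empty vector was 128 ± 42.2 CPM (SD, n = 2). The tail mutant had 109 ± 26.3 CPM and the kinase mutant 99.2 ± 9.14 CPM (SD, n = 2 each).

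Timp1 passed in none of the comparisons with edgeR or with any alternative. Against empty vector the log2 difference was -0.23 ± 0.29 (SE) in the tail mutant, with a 95% interval from -0.93 to 0.46 and a Benjamini-Hochberg adjusted p of 0.855 in edgeR. It was -0.37 ± 0.29 (SE) in the kinase mutant, with an interval from -1.06 to 0.32 and an adjusted p of 0.665 in edgeR. Between the mutants it was 0.14 ± 0.29 (SE), with an interval from -0.56 to 0.83. For both mutants together it was -0.30 ± 0.24 (SE), with an interval from -0.89 to 0.29. The intervals against empty vector do not reach the fitted Mmp2 values. The sign rested on empty vector replicate 2, without which the log2 difference was 0.14 for the tail and 0.0081 for the kinase mutant. Without tail mutant replicate 2 the difference between the tail mutant and empty vector was -0.50, and that between the mutants was -0.13.

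The balance of enzyme and inhibitor reads was read within each library, where library size and scaling cancel. Per 100 Timp1 reads there were 56.0 and 251 Mmp2 reads in the empty vector libraries. There were 9.64 and 8.41 in the tail mutant, and 15.5 and 7.28 in the kinase mutant. The 4 mutant libraries lay below both empty vector libraries in this ratio too, and the mutants overlapped. The ratio uses the same Mmp2 counts, and Timp1 varied much less, so this is no second observation. In CPM, 13% of tested genes had all 4 mutant libraries below both empty vector libraries. These are ratios of reads, not corrected for the length of the genes, so they compare libraries and not the amounts of the 2 transcripts.

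**Figure D4:**
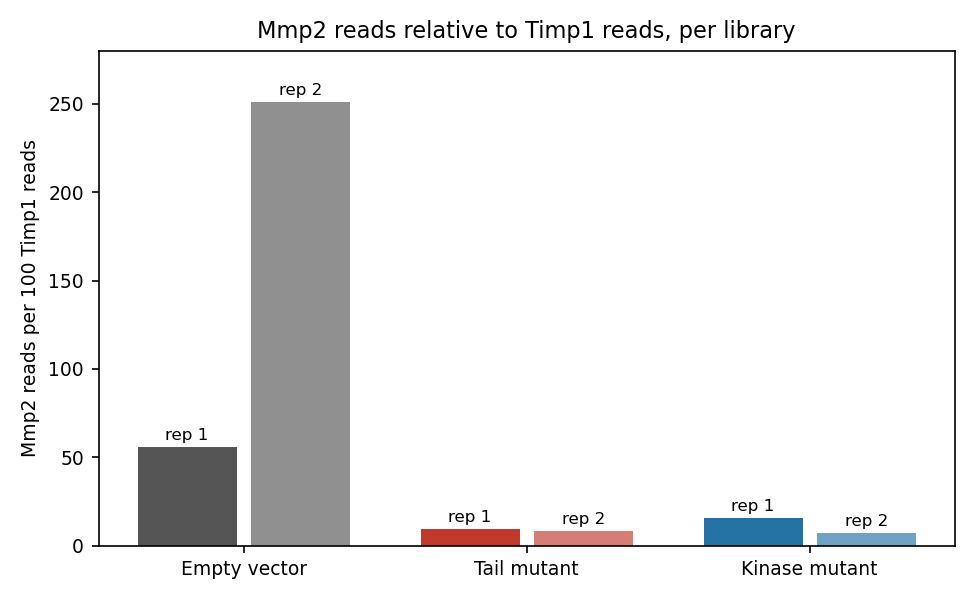
Number of Mmp2 reads per 100 Timp1 reads in each of the 6 libraries, with darker bars for replicate 1 and lighter bars for replicate 2. The mutant libraries lie between 7.28 and 15.5, and the empty vector libraries at 56.0 and 251.

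Mmp3, stromelysin 1, had 81 reads in all 6 libraries together, of which 72 were in tail mutant replicate 2. Empty vector replicates 1 and 2 had 0 and 5 reads, tail mutant replicate 1 had 2, and kinase mutant replicates 1 and 2 had 2 and 0. Tail mutant replicate 2 thus stood at 3.48 CPM (3.77 CPM by library size alone, with a 95% Poisson interval from 2.95 to 4.74), and the other 5 libraries at or below 0.244 CPM. A count of 0 allows up to 0.111 CPM in empty vector replicate 1 and 0.146 CPM in kinase mutant replicate 2, taking 3 counts as the limit. The ratio of the tail mutant replicates to each other was 38.1, with a 95% counting interval from 10.2 to 321. Against empty vector replicate 2 the ratio was 14.3, with an interval from 5.84 to 45.3. Against the limit of 3 counts in empty vector replicate 1, at 0, it was 31.3, a value without the error of the 72 reads.

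The high Mmp3 count therefore separates 1 library from its own replicate as well as from the other groups. In a fit with no filter on low counts, over 17482 genes, Mmp3 in the tail mutant did not pass against empty vector (edgeR Benjamini-Hochberg adjusted p of 0.834) or against the kinase mutant (0.935). Without tail mutant replicate 2 no Mmp3 library exceeded 5 reads. That library stood apart on the second principal component, and the 10 most counted genes held 16.0% of its reads against 19.9% to 22.1% in the others. What part this has in the Mmp3 count was not tested.

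Mmp9, gelatinase B, had 22 reads in all. Empty vector replicates 1 and 2 had 0 and 12 reads, the tail mutant libraries 2 each, and the kinase mutant libraries 1 and 5. The level was 0.586 CPM in empty vector replicate 2, between 0.0497 and 0.244 CPM in the mutants, and below a limit of 0.111 CPM in empty vector replicate 1. The mutant libraries lay within the range of the empty vector libraries. The ratio of empty vector replicate 2 to kinase mutant replicate 2 had a 95% counting interval from 0.788 to 8.71, which includes equal levels. Against the other 3 mutant libraries the intervals lay above 1, with ratios of 6.42 (1.43 to 59.0) for tail mutant replicate 1, 6.06 (1.35 to 55.7) for tail mutant replicate 2 and 11.8 (1.74 to 503) for kinase mutant replicate 1. These intervals cover counting error only. They do not allow for empty vector replicate 2 being taken as the highest library, nor for several comparisons. Empty vector replicate 2 was also 5.26 times the limit of 3 counts in empty vector replicate 1, a value without the error of the 12 reads. By library size alone its 95% Poisson interval ran from 0.306 to 1.03 CPM. That of replicate 1 ran from 0 to 0.148 CPM, so that the replicates differed by more than counting error. Without a filter, the edgeR Benjamini-Hochberg adjusted p of Mmp9 was 0.851 for the tail mutant and 0.883 for the kinase mutant against empty vector.

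Mmp2, Mmp9 and Timp1 each had their highest level in empty vector replicate 2, and Mmp3 its second highest. For Mmp3 that place was 5 reads against 2 in the next libraries, with overlapping Poisson intervals. For Mmp9 it was 12 reads against 5 in kinase mutant replicate 2, with a counting interval that includes equal levels. On the first principal component empty vector replicate 2 lay farthest out, at -64.6. How many of all tested genes had their highest level in that library was not counted. The shared highest library therefore does not by itself show that these genes vary together. The genes with the most similar pattern over the 6 libraries were found by Pearson's r of log2 CPM, a description of points that share their libraries. For Mmp2 the highest r was 0.998, with ENSRNOG00000042990, at 0.853 and 7.56 CPM in empty vector and at most 0.0995 CPM, from 0 to 2 reads, in each mutant library. Its r therefore rests on near-zero counts in the mutants, and it passed the filter through empty vector alone. An r of at least 0.95 with Mmp2 was found for 97 of 12220 genes (0.794%). The same bound was reached by 25 genes (0.205%) for Timp1, 83 (0.679%) for Mmp3 and 8 (0.0655%) for Mmp9. Each highest r was picked from all these genes over 6 libraries, so its size alone says little about shared regulation. For Timp1 the highest r was 0.997, with ENSRNOG00000005318, whose levels were 29.1 and 43.9 CPM in empty vector, 27.5 and 36.7 CPM with the tail mutant and 27.5 and 32.1 CPM with the kinase mutant. For Mmp3 it was 0.994, with ENSRNOG00000011964, a likeness that is mostly that of 1 high library, at 58.9 CPM in tail mutant replicate 2 and 27.3 to 36.7 CPM elsewhere. For Mmp9 it was 0.988, with ENSRNOG00000004217, and rests on few reads. The files pair no identifier with a symbol, so these genes are not named, and other proteinases, other inhibitors, Bmpr2 and markers of myoblasts or other cell types were not looked up. In such bulk libraries, fewer cells that express a gene and less RNA per cell cannot be told apart.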

How the data were processed

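RNA of 6 libraries was counted. The authors deposited unnormalized read counts for each Ensembl gene. Trimmomatic 0.33, STAR 2.4.0, HTSeq 0.6.1p1 and the build Rnor_5.0 are named in the submitters' processing notes. The strand setting is not given in the sources used here, so antisense reads are not separated. The 5 rows that name no gene (43.1% to 48.4% of the total over all rows) were left out.

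The fits used edgeR 4.0.16 under R 4.3.3. The filter was filterByExpr (minimum count 10, total 15), libraries were scaled by TMM, and group contrasts were tested in 1 quasi-likelihood model of all 6 libraries with Benjamini-Hochberg adjustment over 12221 genes. With 2 libraries a group, the spread has 3 residual degrees of freedom and borrows from other genes. DESeq2 1.42.0 and limma 3.58.1 (voom) were alternatives, with other scalings, no filter, a replicate block, fewer libraries and each library left out. The scripts were tested on simulated data. The genes and lists were chosen with earlier results of these data known. The 4 genes were named by the given pairing of identifier and symbol. The rule was to report all 4 whatever they did, plus the gene of highest r for each. None of the 10 gene lists (90 symbols) could be used, since 0 of the 47357 genes in the GRCr8 table carry an Ensembl identifier.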

Additional observations from a re-analysis of the deposited data

How the results depend on the processing

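Counts of called genes moved with the setting. For the tail mutant, the kinase mutant and both mutants against empty vector, edgeR called 1, 1 and 4 genes. Scaling by library size alone gave 3 for the tail mutant and 17 for both mutants, no filter gave 9, 2 and 49, DESeq2 gave 248, 361 and 421, and limma-voom gave 0, 0 and 1. The replicate block gave 2, 2 and 2, and changed no call of Mmp2 or Timp1. Only the 4 libraries compared gave 0 for either mutant. Leaving out 1 library gave 0 to 20, 0 to 2 and 0 to 12. Without tail mutant replicate 1 the tail mutant count was 20. Between the mutants the count was 0 in each edgeR setting and with limma-voom, and 12 with DESeq2.

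Mmp2 kept its direction against empty vector throughout, which follows from its mutant libraries all lying below both empty vector libraries. Its difference between the mutants turned to 0.33 without kinase mutant replicate 1. Timp1 turned to 0.14, 0.0081 and 0.072 for the tail mutant, the kinase mutant and both mutants without empty vector replicate 2, and to -0.13 between the mutants without tail mutant replicate 2. With 1 library left out, Timp1 ranged from -0.54 to 0.14, from -0.67 to 0.0081 and from -0.60 to 0.072 against empty vector and from -0.13 to 0.36 between the mutants, and Mmp2 from -0.57 to 0.33 between the mutants. The labels do not say that libraries with the same replicate number belong together. The correlation of their deviations across genes was 0.12, -0.13 and -0.35 for the 3 pairs of groups. With 2 libraries a group, 1 outlying library can set such a value, so it cannot decide whether they do. Mean CPM by library size alone stayed within 1 SD of the TMM-scaled mean for Mmp2 and Timp1 in each group. For Mmp2 in empty vector the SD was 242 CPM, so this bound says little there. The 2 means were 230 CPM by library size and 226 CPM with TMM. Mmp3 and Mmp9 had a fitted value without the filter only. Both have few reads, and the replicates of a group differed by more than counting error for Mmp3 in the tail mutant and for Mmp9 in empty vector.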
